A study of Mus musculus with 26 samples.

Results

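Megakaryocytes are the large bone marrow cells that shed platelets, and 9 genes of this lineage were followed through 26 RNA-seq libraries of mouse myeloid progenitors and mast cells. They were selected by name for their known products: the platelet chemokines Pf4 and Ppbp, the integrin subunit Itga2b, the von Willebrand factor receptor subunits Gp1ba, Gp5 and Gp9, the ligand Vwf, and the thrombin receptors F2r and F2rl2. Each symbol matched 1 of the 52636 Ensembl genes in the deposited tables. The libraries compared wild-type mice with Prss57-/- littermates, which lack the neutrophil serine protease NSP4 in the germline. The study made 2 such strains. Its supplement names strain 2, which lacks exon 2 of Prss57, for all work except 1 figure on joint leakage, and so for these libraries. The age of the mice is not given in the labels. Granulocyte-macrophage progenitors (GMPs) and common myeloid progenitors (CMPs) were sorted from bone marrow of untreated females, with 4 libraries per cell type and genotype. Both are CD117+ and CD34+ cells that lack SCA-1 and lineage markers, and high CD16/32 marks GMPs whereas low CD16/32 marks CMPs. Bone marrow-derived mast cells (BMMCs) came from males, with 5 libraries per genotype. According to the study's methods BMMCs are grown from sorted GMPs in IL-3 and stem cell factor.

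The members make up much of the machinery with which a platelet binds to a damaged vessel wall. The GPIb-IX-V complex on the platelet surface holds on to von Willebrand factor, thrombin then signals through protease-activated receptors, and integrin αIIbβ3 binds fibrinogen and links platelets to each other. Alpha granules store Pf4, Ppbp and von Willebrand factor and empty them on activation. In the classical scheme of haematopoiesis, CMPs can still give rise to megakaryocyte and erythroid progenitors, while GMPs are committed to granulocytes and monocytes. Several of the members are also known outside the lineage, such as Vwf in endothelial cells and F2r in many tissues.

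Each library held between 18627626 and 53264762 reads on genes, and the values below are normalized RPKM, that is reads per kilobase of gene scaled by depth with the authors' size factor. Progenitors and BMMCs differed in sex and sequencing run as well as in cell type, which cannot be told apart, so their levels are set side by side and not tested. Genotype labels were checked on Prss57 itself: wild-type GMP libraries held 18064 to 26556 Prss57 reads against 6 to 25 in Prss57-/- GMPs, wild-type CMP libraries 2261 to 3926 against 1 in each Prss57-/- library, and BMMC libraries 2 to 27 against 0. The sorts matched their markers, with the CD16 gene Fcgr3 at 262 to 382 in GMPs and 11.7 to 58.8 in CMPs. The mast cell protease gene Cpa3 was at 10304 to 29822 in BMMCs. Some Prss57-/- libraries stood apart. In CMP library 1, values rose with gene length relative to the other Prss57-/- CMPs. In CMP library 2, values fell by 0.41 on the log2 scale for each doubling of gene length relative to the other Prss57-/- CMPs, and BMMC library 3 had a macrophage marker sum of 120.5 where the other BMMC libraries had 1017 to 1584. Results that rest on these libraries are given with and without them. Trends with gene length were not confined to Prss57-/- mice. Relative to their own group, values fell by 0.27 for each doubling of length in wild-type GMP library 1. They rose by 0.25 in wild-type CMP library 3.

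**Figure D1:**
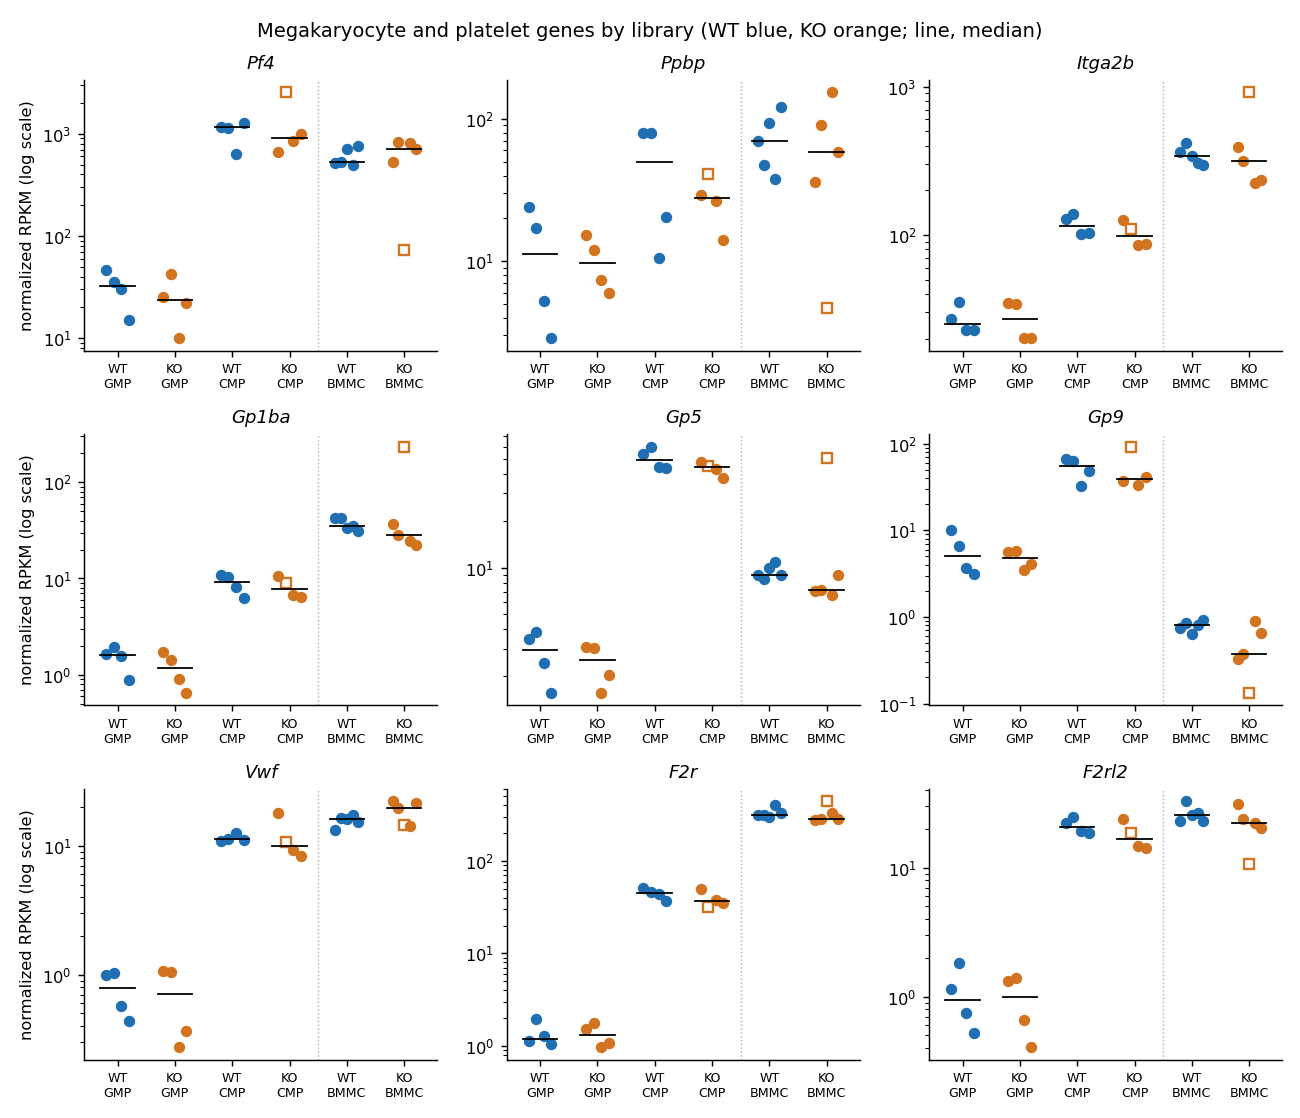
Normalized RPKM (log scale) of the 9 members in each of the 26 libraries, in wild-type (WT, blue) and Prss57-/- (KO, orange) GMPs, CMPs and BMMCs, where each symbol is a library, lines are medians, and open squares mark Prss57-/- CMP library 2 and BMMC library 3. For every member except Ppbp, the CMP libraries of each genotype lie above all GMP libraries, and in BMMCs Gp9 lies at 0.133 to 0.915 while Pf4, Itga2b and F2r lie at 72.3 or above.

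The first comparison asked how the members differ between GMPs and CMPs, within wild-type mice and again within Prss57-/- mice, which share no library. Of the 9 members, 8 were lower in GMPs in both genotypes, from 4.30-fold for Itga2b to 33.0-fold for Pf4 in wild-type mice. The same 8 genes were called in Prss57-/- mice, from 3.65-fold for Itga2b to 48.8-fold for Pf4. A gene was called when the quasi-likelihood test of edgeR, after Benjamini-Hochberg adjustment, gave an adjusted p under 0.01 and the fold change was at least 2. Of all 14967 genes tested in wild-type mice 6.53% were called lower in GMPs, and of 14959 in Prss57-/- mice 4.38%. The median log2 fold change of the members was -3.91 in wild-type and -4.03 in Prss57-/- mice, and that of all genes tested was -0.02 and -0.03. Fewer cells of the megakaryocyte lineage and less of this RNA per cell cannot be told apart in such bulk samples. Each of the 8 had every CMP library above every GMP library of its genotype. An exact two-sided permutation test then gives p = 0.0286, the smallest that 4 libraries against 4 allow. Such separation was not counted over all genes. Of these, 48.7% in wild-type and 40.1% in Prss57-/- mice had an unadjusted p under 0.05 in edgeR. All 8 stayed called in every alternative run with either genotype, including the omission of any library and of the 4 libraries with the steepest gene-length trends.

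Pf4 (platelet factor 4, CXCL4), a heparin-binding chemokine that platelets release from alpha granules, was the most abundant member in CMPs. It is encoded on the forward strand at chr5:90772435-90773383 of GRCm38. Wild-type CMP libraries held 1160.2, 1148, 632 and 1277 normalized RPKM and Prss57-/- CMP libraries 661, 2561, 846 and 986. GMP libraries held 46.6, 35.0, 29.9 and 14.9 in wild-type and 25.1, 42.1, 9.89 and 22.3 in Prss57-/- mice. No GMP library came near a CMP library, and Prss57-/- CMP library 2 was the highest of all. GMPs differed from CMPs by a log2 fold change of -5.04 (SE 0.36, adjusted p = 4.53e-06, edgeR) in wild-type mice. In Prss57-/- mice it was -5.61 (SE 0.60, adjusted p = 0.000320, edgeR), and -5.04 without CMP library 2. Pf4 has the shortest gene model of the 9 members, and CMP library 2 had the steepest fall of values with gene length among the 26 libraries.

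Ppbp (pro-platelet basic protein), the precursor of the neutrophil-attracting chemokine CXCL7, lies 2371 bases upstream of Pf4 on the same strand, at chr5:90768518-90770063. It was the member that was not called. Wild-type CMP libraries held 80.2, 79.5, 10.5 and 20.4 normalized RPKM, and wild-type GMP libraries 24.1, 17.2, 5.28 and 2.86. In Prss57-/- mice the CMP libraries held 29.1, 40.9, 26.5 and 14.0 and the GMP libraries 15.3, 12.1, 7.36 and 5.98. The ranges of the cell types overlapped in both genotypes, and libraries of the same group differed by up to 8.44-fold. At each replicate number, however, the CMP library was above the GMP library of its genotype. The log2 fold change was -1.92 (SE 0.75, adjusted p = 0.0659, edgeR) in wild-type mice and -1.39 (SE 0.37, adjusted p = 0.0270, edgeR) in Prss57-/- mice, neither of which was called. Exact two-sided permutation tests gave p = 0.143 and p = 0.0571. DESeq2 called it in Prss57-/- mice (log2 fold change -1.41, adjusted p = 0.00153) but not in wild-type mice (adjusted p = 0.0622). With replicate number as a block, edgeR called it in wild-type (adjusted p = 0.000690) and in Prss57-/- mice (adjusted p = 0.00365).

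As the neighbours Pf4 and Ppbp parted, their upstream sequences are shown, from RefSeq on build GRCm38.p6, 250 bases up to the start and read 5′ to 3′ along the gene's strand. Capitals here and below mark matches, on either strand, to the GATA words (AGATAA or its relative AGATAG, or TGATAA or its relative TGATAG), to the ETS word AGGAAG and to the TATA word TATAAA. The Pf4 sequence covers chr5:90772185-90772434 and the Ppbp sequence chr5:90768268-90768517, both on the forward strand.
Pf4: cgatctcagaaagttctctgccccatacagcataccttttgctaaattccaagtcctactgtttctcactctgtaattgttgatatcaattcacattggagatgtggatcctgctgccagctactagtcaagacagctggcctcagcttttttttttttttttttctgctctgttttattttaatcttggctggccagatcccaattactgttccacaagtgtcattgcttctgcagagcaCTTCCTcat
Ppbp: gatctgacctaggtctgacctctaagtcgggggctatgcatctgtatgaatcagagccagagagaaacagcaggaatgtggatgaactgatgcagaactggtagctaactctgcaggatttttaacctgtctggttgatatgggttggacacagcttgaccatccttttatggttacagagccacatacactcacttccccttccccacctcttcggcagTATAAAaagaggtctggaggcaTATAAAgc
Pf4 had an ETS word 9 bases upstream of the start, on the reverse strand, and no other match. Ppbp had TATA words that began 30 and 8 bases upstream and neither a GATA nor an ETS word. Among 32851 RefSeq promoters cut to the same 250 bases, 26.5% held a GATA word, 29.5% the ETS word and 12.4% the TATA word, so each of these words is common. RefSeq promoters matched 8 of the 9 members, of which 3 held a GATA word and 6 the ETS word.

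Itga2b encodes integrin αIIb (CD41), a subunit of the fibrinogen receptor, on the reverse strand at chr11:102453297-102470122. CMP libraries held 127, 138, 102 and 103 normalized RPKM in wild-type and 127, 110.1, 85.7 and 86.5 in Prss57-/- mice. GMP libraries held 27.0, 35.3, 22.8 and 22.7 in wild-type and 34.5, 34.0, 20.0 and 20.3 in Prss57-/- mice. The groups did not overlap, and the difference was the smallest of the 8 called, with log2 fold changes of -2.10 (SE 0.17, adjusted p = 9.27e-06, edgeR) in wild-type and -1.87 (SE 0.24, adjusted p = 0.000831, edgeR) in Prss57-/- mice. Itgb3, the β3 subunit that pairs with αIIb, was lower in GMPs by a similar factor, at -2.17 (SE 0.17, adjusted p = 7.19e-06, edgeR) and -1.94 (SE 0.25, adjusted p = 0.000803, edgeR). Within a library, Itgb3 was between 0.115 and 0.210 times the level of Itga2b in all 16 progenitor libraries.

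The GPIb-IX-V receptor is built from the products of Gp1ba, Gp1bb, Gp9 and Gp5, of which GPIbα binds von Willebrand factor, GPIbβ and GPIX are needed for the complex to reach the surface, and GPV is a thrombin substrate. All these genes were lower in GMPs. Gp1ba (chr11:70639122-70642036, forward) was at 10.9, 10.4, 8.16 and 6.20 normalized RPKM in wild-type CMPs and 1.66, 1.93, 1.58 and 0.878 in wild-type GMPs. Prss57-/- CMPs held 10.7, 8.95, 6.70 and 6.49 and Prss57-/- GMPs 1.73, 1.43, 0.906 and 0.648. Gp1ba had the lowest mean of the members in CMPs of both genotypes, and its log2 fold change was -2.54 (SE 0.26, adjusted p = 4.74e-05, edgeR) in wild-type and -2.75 (SE 0.33, adjusted p = 0.000527, edgeR) in Prss57-/- mice.

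Gp5 (chr16:30307685-30310779, reverse) was another subunit with a wide gap between the cell types. It was at 53.8, 60.1, 44.2 and 43.8 normalized RPKM in wild-type and 48.0, 44.8, 43.3 and 37.8 in Prss57-/- CMPs. GMPs held 3.49, 3.88, 2.42 and 1.56 in wild-type and 3.08, 3.06, 1.56 and 2.04 in Prss57-/- mice. The log2 fold changes of -4.13 (SE 0.27, adjusted p = 3.10e-06, edgeR) and -4.11 (SE 0.25, adjusted p = 3.88e-05, edgeR) were nearly equal in the genotypes. Gp9 (chr6:87778072-87779768, forward) was at 66.3, 62.5, 32.2 and 48.7 in wild-type CMPs and 37.4, 92.7, 33.5 and 41.1 in Prss57-/- CMPs, with the highest value in library 2. GMPs held 9.98, 6.50, 3.70 and 3.09 in wild-type and 5.57, 5.72, 3.46 and 4.09 in Prss57-/- mice. No GMP library reached the lowest CMP library, and the log2 fold changes were -3.15 (SE 0.37, adjusted p = 0.000124, edgeR) and -3.38 (SE 0.35, adjusted p = 0.000294, edgeR). Without library 2, the value in Prss57-/- mice was -2.95. Gp1bb fell with its partners, by 4.09 on the log2 scale in wild-type mice (SE 0.53, adjusted p = 0.000214, edgeR) and by 4.18 in Prss57-/- mice (SE 0.32, adjusted p = 8.30e-05, edgeR).

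The proportions of the subunits differed between the cell types for Gp5 and Gp1bb. Relative to Gp1ba in the same library, Gp5 was 4.48 to 7.06 times as abundant in CMPs and 1.53 to 3.15 times in GMPs, and these ranges did not overlap. Gp1bb was 2.37 to 4.29 times as abundant as Gp1ba in CMPs and 0.411 to 2.06 times in GMPs, again without overlap. For Gp9 the ratios of 3.49 to 10.4 in CMPs and 2.34 to 6.31 in GMPs overlapped. The upstream sequences of Gp1ba (chr11:70638872-70639121, forward), Gp5 (chr16:30310782-30311031, reverse) and Gp9 (chr6:87777820-87778069, forward) are shown because these genes serve a single receptor and yet differ in level and in the size of the change.
Gp1ba: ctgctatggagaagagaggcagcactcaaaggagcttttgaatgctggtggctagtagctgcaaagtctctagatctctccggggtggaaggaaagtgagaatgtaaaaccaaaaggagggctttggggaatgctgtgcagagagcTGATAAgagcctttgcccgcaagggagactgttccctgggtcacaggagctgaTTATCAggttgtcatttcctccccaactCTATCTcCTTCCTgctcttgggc
Gp5: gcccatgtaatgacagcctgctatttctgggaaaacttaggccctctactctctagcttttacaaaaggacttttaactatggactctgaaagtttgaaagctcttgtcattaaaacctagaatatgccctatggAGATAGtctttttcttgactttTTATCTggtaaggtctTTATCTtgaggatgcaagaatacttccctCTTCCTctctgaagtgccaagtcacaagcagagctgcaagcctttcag
Gp9: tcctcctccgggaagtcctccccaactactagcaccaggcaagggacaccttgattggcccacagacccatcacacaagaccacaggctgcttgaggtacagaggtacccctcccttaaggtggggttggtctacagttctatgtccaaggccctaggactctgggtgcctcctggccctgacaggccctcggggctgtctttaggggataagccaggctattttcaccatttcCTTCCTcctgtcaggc
Gp1ba held GATA words that began 104, 51 and 23 bases upstream and the ETS word at 16 bases. Gp5 held GATA words at 115, 93 and 77 bases and the ETS word at 48 bases. Gp9 held the ETS word at 16 bases and no GATA word. Both kinds of word together stood in 7.78% of all RefSeq promoters, and in 3 of the 8 members matched.

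**Figure D2:**
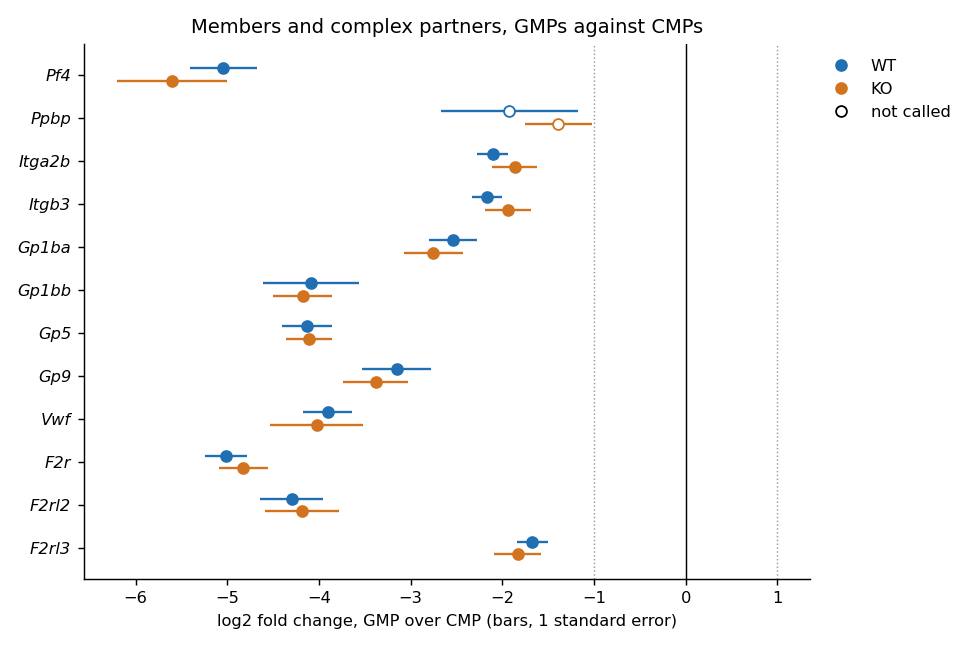
Log2 fold change of GMPs over CMPs for the members and their partners Itgb3, Gp1bb and F2rl3 in wild-type (WT, blue) and Prss57-/- (KO, orange) mice, where bars are 1 standard error, open symbols are genes not called, and dotted lines mark 2-fold. Every symbol except those of Ppbp is filled and lies left of -1, and the genotypes lie side by side for each gene.

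Vwf, the multimeric ligand of GPIbα that megakaryocytes and endothelial cells make, is the longest of the members and lies on the forward strand at chr6:125546774-125686679. CMP libraries held 10.8, 11.3, 12.7 and 11.1 normalized RPKM in wild-type and 18.0, 10.8, 9.22 and 8.28 in Prss57-/- mice. GMP libraries held 0.997, 1.02, 0.575 and 0.437 in wild-type and 1.07, 1.04, 0.272 and 0.368 in Prss57-/- mice. CMPs were well apart from GMPs, with log2 fold changes of -3.91 (SE 0.27, adjusted p = 3.40e-06, edgeR) and -4.03 (SE 0.51, adjusted p = 0.000696, edgeR). The highest value, 18.0, was in Prss57-/- CMP library 1, where values rose by 0.34 on the log2 scale for each doubling of gene length, and without it the log2 fold change in Prss57-/- mice was -3.72. Since endothelial cells also express Vwf, their markers Cdh5, Kdr, Emcn, Tek and Egfl7 were summed, which gave 52.1 to 178 normalized RPKM in CMPs and 13.7 to 25.7 in GMPs. Most of that sum was Egfl7, at 46.3 to 174 in CMPs, while Tek was at 1.31 to 3.61, Emcn at 1.24 to 2.67 and Kdr at 0.522 to 1.01, and Cdh5 had at most 8 reads in any CMP library. All of these except Cdh5, which was too low to test, were called lower in GMPs in both genotypes, as Vwf was, and their part in the values of Vwf was not tested.

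F2r encodes PAR1 and F2rl2 encodes PAR3, receptors that thrombin cuts at their N terminus. They lie 78365 bases apart on chromosome 13, F2r on the reverse strand (chr13:95601803-95618487) and F2rl2 on the forward strand (chr13:95696853-95702739). F2r was at 51.5, 45.8, 43.5 and 36.7 normalized RPKM in wild-type CMPs and 1.13, 1.96, 1.27 and 1.05 in wild-type GMPs. Prss57-/- CMPs held 50.2, 31.9, 38.2 and 35.4 and Prss57-/- GMPs 1.52, 1.77, 0.962 and 1.09. F2r was among the members with the largest differences, at -5.01 (SE 0.22, adjusted p = 5.13e-07, edgeR) and -4.83 (SE 0.27, adjusted p = 3.02e-05, edgeR) on the log2 scale. F2rl2 was at 22.1, 24.6, 19.2 and 18.7 in wild-type CMPs and 23.8, 18.6, 14.7 and 14.3 in Prss57-/- CMPs. GMPs held 1.15, 1.82, 0.741 and 0.522 in wild-type and 1.32, 1.40, 0.654 and 0.404 in Prss57-/- mice. It was lower in GMPs by 4.30 (SE 0.34, adjusted p = 8.77e-06, edgeR) and 4.19 (SE 0.41, adjusted p = 0.000217, edgeR) on the log2 scale. F2rl2 lies inside Iqgap2, which is transcribed from the other strand, and the strand setting of the read counting is not given in the sources used here, so reads of these genes may be mixed. Iqgap2 was higher in GMPs on average, at 30.3 ± 5.80 (SD, n = 4) against 22.7 ± 3.82 (SD, n = 4) in wild-type CMPs, and was not called (log2 fold change 0.44, adjusted p = 0.0677, edgeR).

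The sequence upstream of F2rl2 (chr13:95696670-95696852, forward) is shown as it held a GATA word and the ETS word side by side, which began 95 and 101 bases upstream of the RefSeq start. Bases that the GENCODE gene already includes were left out.
F2rl2: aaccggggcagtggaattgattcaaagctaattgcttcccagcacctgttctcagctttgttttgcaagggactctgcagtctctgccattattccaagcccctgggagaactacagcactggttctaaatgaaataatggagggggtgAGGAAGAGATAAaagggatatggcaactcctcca
In 250 bases upstream of F2r none of the words was found. The other protease-activated receptors differed from both. F2rl3, which encodes the thrombin receptor PAR4, was at 23.1 to 48.7 normalized RPKM in CMPs and 6.79 to 12.2 in GMPs, a log2 fold change of -1.67 (SE 0.17, adjusted p = 4.14e-05, edgeR) in wild-type and -1.83 (SE 0.26, adjusted p = 0.00124, edgeR) in Prss57-/- mice. F2rl1, which encodes the trypsin receptor PAR2, stayed at or below 0.501 in all progenitor libraries and was not called in either genotype.

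Among 40 other platelet genes, 39 were tested, and in each genotype 19 were lower in GMPs, 3 were higher and 17 were not called. The same genes were called in both genotypes. Of all genes tested, 6.28% were called higher in GMPs in wild-type mice and 4.04% in Prss57-/- mice. The list median was -1.64 in wild-type and -1.40 in Prss57-/- mice, smaller in size than that of the members. The calcium channel gene Trpc6 had the lowest value (-5.41 and -5.18), and low values were also found for the thromboxane receptor gene Tbxa2r (-4.71 and -4.84), Cavin2 (-4.39 and -4.82) and Treml1, whose product sits in alpha granules (-4.25 and -4.50). Selp, which encodes P-selectin, fell by 1.93 in wild-type and by 1.76 in Prss57-/- mice. Also lower in both were Esam, Mmrn1, Plek, Clec1b, Jam3, Cd9, Rap1b, Gng11, P2ry1 and Tbxas1, beside the partners Gp1bb, Itgb3 and F2rl3. The 3 genes higher in GMPs were F13a1, a clotting factor subunit that monocytes make too (1.24 and 1.25), Nbeal2, needed for alpha granules (1.23 and 1.24), and Rasgrp2, a Rap activator (1.14 and 1.07). In Prss57-/- mice the number called fell from 22 to 14 without GMP library 3.

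**Figure D3:**
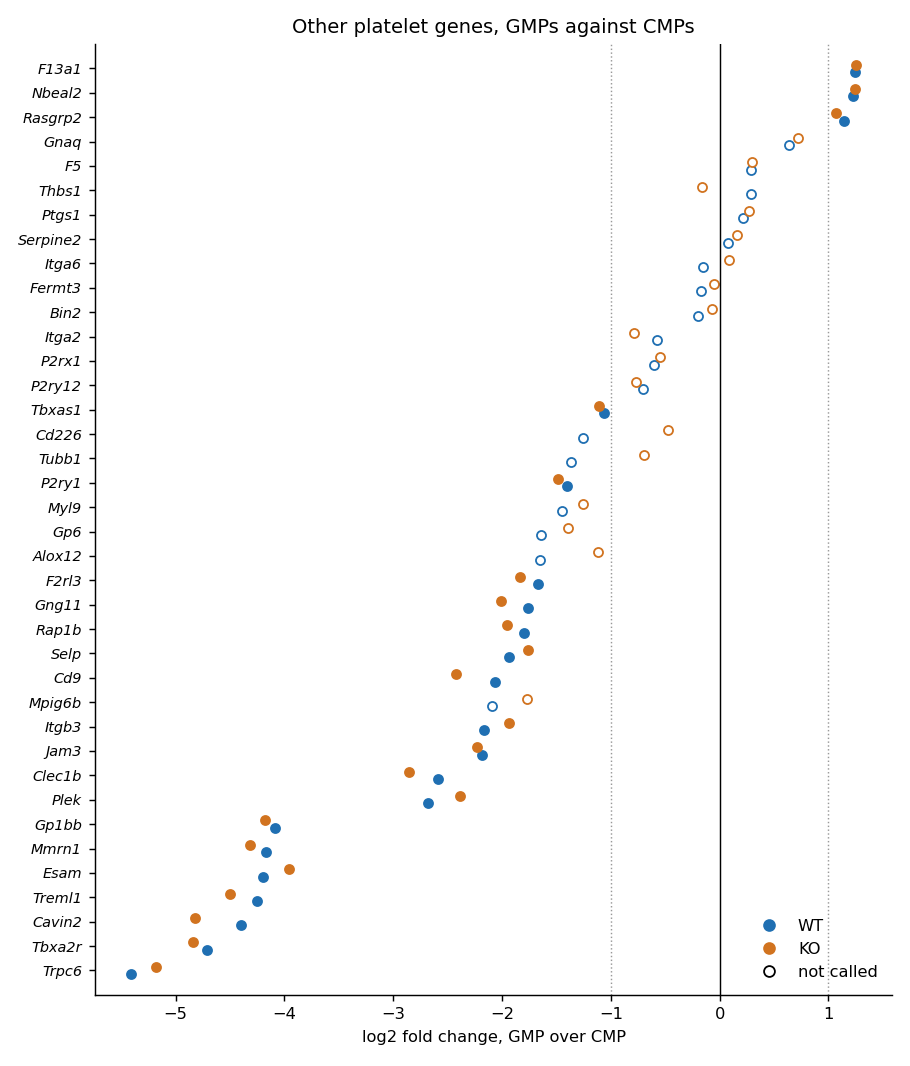
Log2 fold change of GMPs over CMPs for other platelet genes in wild-type (WT, blue) and Prss57-/- (KO, orange) mice, with filled symbols for called genes, open symbols for genes not called and dotted lines at 2-fold. Trpc6, at -5.41 and -5.18, is lowest, and F13a1, Nbeal2 and Rasgrp2 are the 3 genes called to the right of 1.

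Of 14 regulators of megakaryocytes, 6 were lower in GMPs in both genotypes and the other 8 were not called. Of all genes tested, 6.53% were called lower in wild-type and 4.38% in Prss57-/- mice. Among those not called, Fli1 (0.42 and 0.34), Runx1 (0.46 and 0.58), Etv6 (0.54 and 0.55) and Mrtfa (0.87 and 0.88) were higher in GMPs on average. Gata2, Nfe2, Mecom and Mef2c were lower on average. Of the genes called lower, Gfi1b (-3.32 and -3.25), Zfpm1 (-3.21 and -3.12), Gata1 (-3.06 and -2.92) and Tal1 (-2.02 and -1.90) encode transcription factors or cofactors shared with the erythroid lineage. Meis1, a homeodomain factor, was also called lower (-1.97 and -1.88). Erythroid genes moved the same way. Of 7 erythroid markers, 4 were lower in GMPs in wild-type and 6 in Prss57-/- mice. Their sum was 610.1 to 1205 normalized RPKM in CMPs against 23.7 to 57.3 in GMPs. Most of the sum in CMPs was Car1, at 551 to 1012 in wild-type and 483 to 868 in Prss57-/- mice. Hba-a1, Hbb-bt and Slc4a1 overlapped between the cell types in wild-type mice. The part of erythroid cells in the values of the members was not tested.

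The members were not equally abundant within a cell type. In wild-type CMPs Pf4 stood above all others, Itga2b came next without overlap, and Gp9 (32.2 to 66.3 normalized RPKM), Gp5 (43.8 to 60.1), Ppbp (10.5 to 80.2) and F2r (36.7 to 51.5) could not be ordered beyond their spread. F2rl2 lay below these except Ppbp, Vwf below F2rl2, and Gp1ba (6.20 to 10.9) overlapped Vwf (10.8 to 12.7). In wild-type GMPs Pf4 (14.9 to 46.6), Itga2b (22.7 to 35.3) and Ppbp (2.86 to 24.1) overlapped, and Gp1ba, F2r, F2rl2 and Vwf all lay between 0.437 and 1.96. The smallest number of reads behind any of these values was 39, for F2rl2 in a Prss57-/- GMP library.

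Over the 16 progenitor libraries, the genes with profiles most like each member were sought by Pearson's r of log2(normalized RPKM + 0.1). For some pairs, r within the 8 CMP libraries is given beside the value over all, since the difference between the cell types enters every r over all 16. Pf4 was most like Treml1 (0.996 over all, 0.931 in CMPs), Pdzk1ip1 and Lfng. Ppbp was most like Alox12 (0.961 and 0.985), the platelet lipoxygenase, Mpig6b, an inhibitory receptor of platelets, and Myl9 (0.933 and 0.977), a myosin light chain. None of these 3 genes was called in either genotype, as was the case for Ppbp itself. Their selection by likeness over the same libraries makes a shared outcome likely, so it adds nothing to the result for Ppbp. Itga2b was most like F2rl2 (0.994 and 0.974), A730089K16Rik and Plek, and Gp1ba was most like Inafm1, Gpm6b and F2rl2. Among the genes most like Gp5 were Mfsd2b (0.996 and 0.590) and Tal1 (0.995 and 0.831), and among those most like Vwf were Prkcq (0.994 and 0.759) and Mfsd2b (0.993 and 0.779). Gp9 was most like Myct1 (0.994 and 0.969), Tspan8 and Gcsam, F2r most like Slc14a1 (0.997 and 0.854), Gfi1b and Trpc6, and F2rl2 most like Cavin2 (0.996 and 0.752), Gcnt2 and Ntn4. These r share libraries and depth and are given without a test.

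In cultured mast cells the members split. In wild-type BMMCs Pf4 was at 520.0, 525, 708, 497 and 757 normalized RPKM, Itga2b at 359.5, 414, 341, 307 and 298, and F2r at 316, 316, 299.5, 399.9 and 331. Gp9, in contrast, was at 0.755, 0.857, 0.638, 0.818 and 0.915, which is 14 to 19 reads per library. Between these ends lay Ppbp (69.5, 47.4, 93.1, 37.7 and 120.4), Gp1ba (42.3, 42.3, 33.3, 35.2 and 31.0), F2rl2 (23.2, 32.9, 25.5, 26.6 and 23.0), Vwf (13.2, 16.6, 16.2, 17.4 and 15.3) and Gp5 (9.02, 8.44, 10.00, 10.9 and 8.96). Beside the wild-type CMPs, the level was higher in BMMCs for Itga2b, Gp1ba, Vwf and F2r, with no overlap of libraries, and lower for Gp5 and Gp9. Pf4, Ppbp and F2rl2 overlapped between wild-type CMPs and BMMCs. The share of all genes that separate these groups, which also differ in sex and sequencing run, was not counted. Macrophage markers differed as well, with a sum of 1017 to 1290 normalized RPKM in wild-type BMMCs, led by C1qb at 451 ± 60.3 (SD, n = 5), against 36.6 to 50.5 in wild-type CMPs, and their part in these levels was not tested.

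The split ran through the GPIb-IX-V receptor. Gp9 was 3.95 to 7.85 times as abundant as Gp1ba in wild-type CMPs and 0.0178 to 0.0295 times in wild-type BMMCs. Gp1bb behaved like Gp9, at 0.202, 0.214, 0.213, 0.311 and 0.338 normalized RPKM in wild-type BMMCs, or 8 to 15 reads. Of the subunits, Gp1ba was the only one above its CMP range, and both genes whose products carry it to the surface were at few reads. The thrombin receptor gene F2rl3 had 18 to 38 reads in wild-type BMMCs, and F2rl1 was at 0 reads in all 10 BMMC libraries, against a floor of 3 reads per library. Erythroid markers summed to 3.82 to 6.39 normalized RPKM in wild-type BMMCs, far from their sums in CMPs. Most of this was Hbb-bt, at 3.08 to 6.02. F2rl2 was 0.0664 to 0.104 times as abundant as F2r, where it had been 0.430 to 0.538 times in wild-type CMPs. Itgb3, at 43.2, 53.8, 47.4, 62.1 and 52.6, was 0.120 to 0.202 times as abundant as Itga2b, a range that overlaps that of the progenitors.

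**Figure D4:**
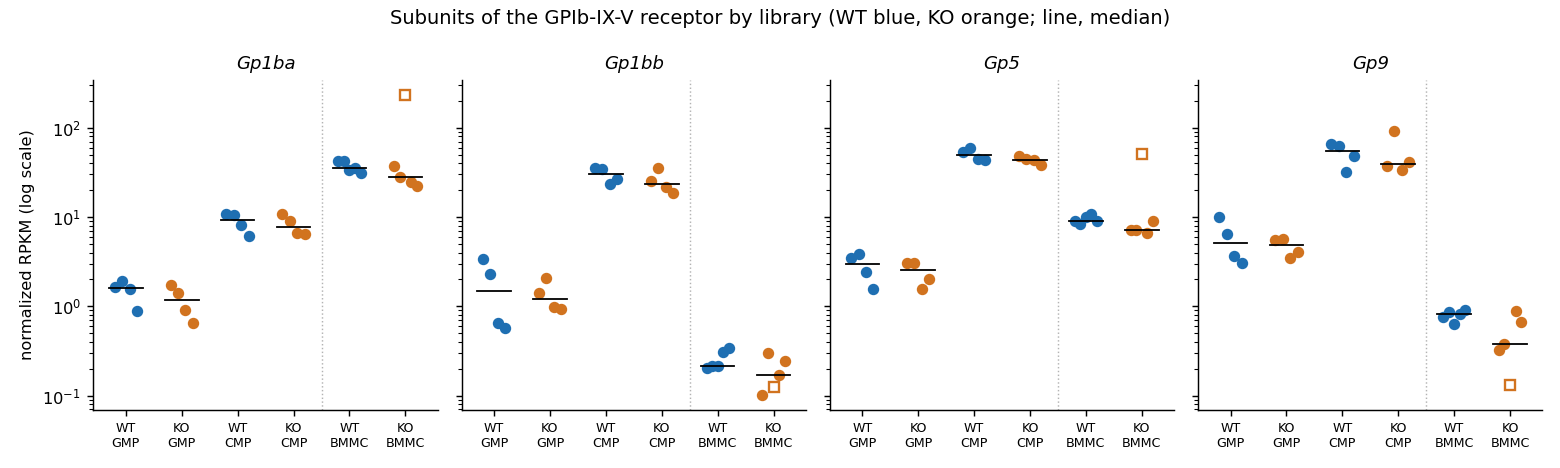
Normalized RPKM (log scale) of the 4 genes of the GPIb-IX-V receptor in each library of wild-type (WT, blue) and Prss57-/- (KO, orange) GMPs, CMPs and BMMCs, with medians as lines and Prss57-/- BMMC library 3 as an open square. In BMMCs, Gp1ba lies at 22.5 or above and Gp9 and Gp1bb lie below 1, whereas in CMPs Gp1ba is the lowest of the 4.

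The second comparison asked whether loss of NSP4 changed these genes. No member was called between genotypes in GMPs, CMPs or BMMCs by edgeR, limma voom or DESeq2, and none had an unadjusted p under 0.05 in edgeR. Of all genes tested, 0.00681% were called in GMPs, 0.0067% in CMPs and 0% in BMMCs, so few genes of any kind were called. An unadjusted p under 0.05 in edgeR was also rare over all genes, at 0.81% in GMPs, 0.51% in CMPs and 2.38% in BMMCs. The libraries of the genotypes overlapped for all 9 members in each cell type. In GMPs the log2 fold changes of Prss57-/- over wild-type ranged from -0.36 (SE 0.32) for Gp1ba to 0.01 (SE 0.22) for Itga2b. In CMPs they ranged from -0.80 (SE 0.61) for Ppbp to 0.23 (SE 0.42) for Pf4, and Pf4 turned to -0.36 without Prss57-/- CMP library 2. The 95% interval of the difference for Ppbp in CMPs reached from -2.17 to 0.57, and that for Gp5, the narrowest in CMPs, from -0.60 to 0.13. For Ppbp in GMPs it reached from -1.55 to 0.99. Small changes were thus not detectable, and for some members changes above 2-fold also lay within the interval. The interaction of genotype and cell type tests whether the difference between GMPs and CMPs itself depends on NSP4. It was called for 0 of the 9 members by any of these tools and for 0% of all 15900 genes. No member had an unadjusted p under 0.05 in edgeR, and only 1.06% of all genes did. The estimates of the interaction for the members lay between -0.58 (SE 0.63) for Pf4 and 0.54 (SE 0.92) for Ppbp.

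In BMMCs, Prss57-/- library 3 stood apart from the other 4 Prss57-/- libraries in most members. Pf4 was at 523, 826, 72.3, 816 and 714 normalized RPKM, so that library 3 was 10.6-fold below the median of the other Prss57-/- libraries. Ppbp was at 35.7, 90.6, 4.69, 154 and 58.7, which puts library 3 15.9-fold below. Gp1ba moved the other way, at 37.2, 28.4, 235, 24.6 and 22.5, or 8.86-fold above the others, and Gp5, at 7.07, 7.15, 50.5, 6.68 and 9.02, was 7.10-fold above. Itga2b followed Gp1ba, at 391, 314, 918, 222 and 233, but its partner Itgb3, at 47.1, 55.5, 2.63, 50.3 and 45.5, was 18.5-fold below. Library 3 therefore held Itgb3 at 0.00286 times Itga2b, whereas the other 25 libraries lay between 0.115 and 0.226.

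F2r, F2rl2, Vwf and Gp9 did not move together in library 3. F2r was at 277, 282, 446, 333 and 285 and F2rl2 at 31.1, 23.8, 10.7, 22.4 and 20.1, so that the neighbouring receptor genes went in different directions. Vwf, at 22.3, 19.6, 14.5, 14.4 and 21.4, stayed within the range of the others, and Gp9, at 0.328, 0.376, 0.133, 0.891 and 0.661, rested on 2 to 22 reads. With library 3 the log2 fold change of Prss57-/- over wild-type BMMCs was 0.91 (SE 0.65) for Gp1ba, 0.76 (SE 0.58) for Gp5 and 0.27 (SE 0.37) for Itga2b. Without it these values were -0.39, -0.34 and -0.25, and Pf4 and Ppbp went from -0.03 and -0.10 to 0.25 and 0.20. No member was called with or without it, so a difference between the genotypes in BMMCs was not found. In library 3, the mast cell marker sum was 74288 normalized RPKM against 24579 to 45819 in the other BMMC libraries, and its macrophage marker sum was the lowest, and their part in the values of the members was not tested.

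**Figure D5:**
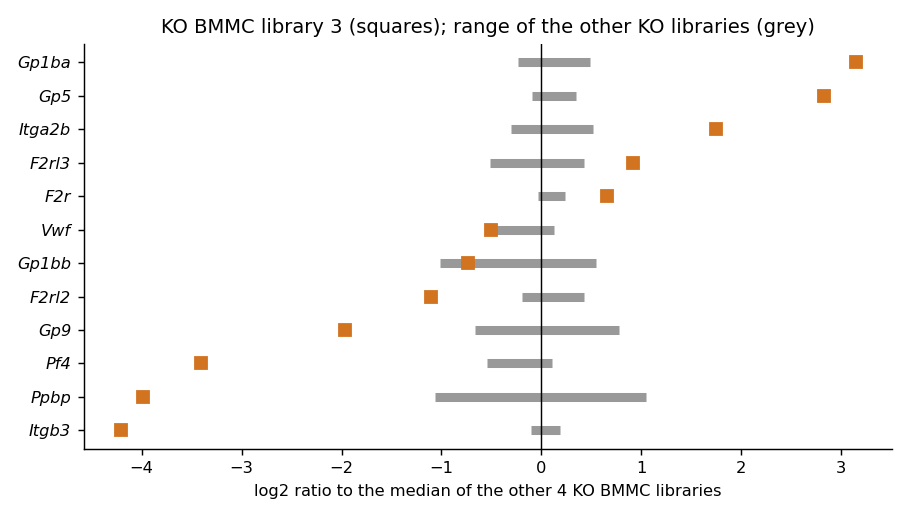
Level of 12 genes in Prss57-/- BMMC library 3 (squares) as a log2 ratio to the median of the other 4 Prss57-/- BMMC libraries, whose range is drawn in grey. Gp1ba, Gp5 and Itga2b lie farthest to the right, followed by F2rl3 and F2r, and Itgb3, Ppbp and Pf4 lie farthest to the left.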

How the data were processed

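RNA-seq had been run on 26 libraries of sorted GMPs and CMPs and of BMMCs, made with a stranded total RNA kit and sequenced as single-end reads. The study calls the replicates biological. Per its methods and the labels, the authors aligned reads with GSNAP to GRCm38 through HTSeqGenie 4.0.1 and counted uniquely aligned reads in exons. They deposited raw counts per gene and a normalized RPKM for each library, and levels are given in the latter.

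Tests used the deposited counts in edgeR 4.0.16 (TMM scaling, filter on low counts, quasi-likelihood F test, Benjamini-Hochberg adjustment over all genes tested) under R 4.3.3. GMPs were compared with CMPs within each genotype, and genotypes within each cell type, with only those libraries in the fit, and the interaction used the 16 progenitor libraries. Called means an adjusted p under 0.01 and at least 2-fold. The fits were tested on simulated data. The alternatives were limma voom (limma 3.58.1), DESeq2 1.42.0, RLE scaling, no filter, a replicate block, an adjusted p under 0.05, 1 fit of all 26 libraries and the omission of each library. A gene-length covariate and the omission of the 4 progenitor libraries whose length slope exceeded 0.2 were chosen after seeing the data. Gene positions are from GENCODE M21 and promoters from RefSeq. Few reads limit Gp9 and Gp1bb in BMMCs, and errors cover the spread between libraries.

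All 9 members are named. Other genes are named if called in both genotypes, if partners of a member in a receptor or family, if they overlap a member, or if among the 3 most like it. Fcgr3, Cpa3, Prss57 and the endothelial markers are named as checks. Regulators of megakaryocytes that were not called are named for their direction. The members and lists were chosen with earlier results of these data known. A few genes that the rule names are not reported here.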

Additional observations from a re-analysis of the deposited data

Results flagged for a closer look

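Among 54 combinations of a member and a group, 4 had a library far from the others of its group by Dixon's gap test, where chance alone flags about 5% of groups, or 2.7 here. In Prss57-/- BMMC library 3, Itga2b was at 918 normalized RPKM (others 222 to 391), Gp1ba at 235 (others 22.5 to 37.2) and Gp5 at 50.5 (others 6.68 to 9.02). In Prss57-/- CMP library 2, Gp9 was at 92.7 (others 33.5 to 41.1). Library 3 also had a macrophage marker sum of 120.5 and a mast cell marker sum of 74288, and CMP library 2 a length slope of -0.41, and the part of these in the values was not tested.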

How the results depend on the processing

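The 8 members called between GMPs and CMPs kept their direction and their call in both genotypes under every alternative run, and no member was called between genotypes or for the interaction under any. Of all values of single members under an alternative, 858 kept direction and side of the threshold, 3 crossed it and 75 changed sign, and none of the 75 was called. The cause was not tested. The number of other platelet genes called in Prss57-/- mice ranged from 14 (without GMP library 3) to 23 with 1 library left out.

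Whether replicate numbers pair the libraries was not settled, and the main tests do not use them. The mean correlation of deviations of same-numbered libraries was 0.13 for wild-type GMPs and CMPs and 0.18 for Prss57-/- GMPs and CMPs. Between genotypes it was -0.01 in GMPs, 0.16 in CMPs and -0.06 in BMMCs. For libraries of different number the means were -0.05, -0.06, 0.009, -0.06 and 0.02, in the same order. Deviations were taken from each group's mean, which ties the means for different numbers to those for same numbers. The former are therefore no independent comparison. Same-numbered GMPs and CMPs had the higher mean in both genotypes. Their lowest pair was at -0.00107 in wild-type and 0.0122 in Prss57-/- mice. With the replicate block, 9 members were called in each genotype, the added one being Ppbp (-1.92, adjusted p = 0.000690 in wild-type and -1.40, adjusted p = 0.00365 in Prss57-/- mice, edgeR). DESeq2 also called Ppbp in Prss57-/- mice (-1.41, adjusted p = 0.00153).

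Sign changes of log2 fold changes that passed no test were as follows. With the libraries of steep length slope left out, the interaction was 0.28 for Pf4, 0.17 for Gp1ba, 0.75 for Gp9 and 0.36 for Vwf, the genotype difference in GMPs was 0.27 for Ppbp, 0.092 for Gp9 and 0.026 for Vwf, and that of Pf4 in CMPs was -0.40. With the slope as covariate, the interaction was 0.070 for Gp9, and the genotype difference was -0.052 for Itga2b in GMPs and -0.035 for Pf4 and 0.013 for Vwf in CMPs. In GMPs, Ppbp was 0.14 and Itga2b -0.00630 under limma voom, and Ppbp 0.069 and Itga2b -0.012 with the replicate block.

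With 1 library left out, the interaction ranged from -0.96 to 0.0066 for Pf4, -0.18 to 0.21 for Gp5, -0.43 to 0.20 for Gp9, -0.41 to 0.20 for Vwf and -0.14 to 0.52 for F2rl2. The genotype difference in GMPs ranged from -0.60 to 0.27 for Ppbp, -0.11 to 0.18 for Itga2b, -0.50 to 0.092 for Gp9, -0.41 to 0.14 for Vwf, -0.18 to 0.22 for F2r and -0.41 to 0.25 for F2rl2. In CMPs it ranged from -0.36 to 0.41 for Pf4, -0.51 to 0.089 for Gp9 and -0.33 to 0.13 for Vwf. In BMMCs it ranged from -0.18 to 0.25 for Pf4, -0.64 to 0.20 for Ppbp, -0.25 to 0.43 for Itga2b, -0.39 to 1.14 for Gp1ba, -0.34 to 0.97 for Gp5 and -0.18 to 0.035 for F2r.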
